A study of Mus musculus with 8 samples.

Results

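Transcripts of the NF-kB transcription factor subunits and of feedback genes that NF-kB itself induces, inhibitors among them, were examined in mouse pancreatic cancer cells. The genes were taken by symbol from the raw count table: Nfkb1, Nfkb2, Rela, Relb and Rel for the subunits, and Nfkbia, Nfkbie, Nfkbiz, Tnfaip3 and Birc3 for the feedback genes. All 10 had a row among the 39179 genes listed, and all 10 passed the filter on low counts that left 13626 genes for testing.

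NF-kB is a family of dimeric transcription factors that are held in the cytoplasm by inhibitors of the IkB family. Cytokines such as TNF and IL-1 activate the IkB kinase complex, which marks the inhibitor for degradation, so that dimers such as RELA with the p50 product of Nfkb1 enter the nucleus. A slower, non-canonical branch processes the Nfkb2 product and releases RELB. Among the genes that NF-kB induces are brakes on its own activity.

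The cells were epithelial cancer cells of the mouse pancreas, of FVB/B6 mixed background, with the alleles p48Cre, ROSA_rtTAL+ and p53L+ among those in their labelled genotype. In words, the p48 promoter drives Cre recombinase in the pancreas, the reverse tetracycline transactivator is expressed from the ROSA locus, and p53 carries a conditional allele. Every library of both arms shares the same genotype. The cells carried GFP and were grown for 72 h with RFP-labelled pancreatic stellate cells in 0.5% dialyzed serum, then sorted by colour. A neutralizing antibody against sonic hedgehog (SHH), a secreted ligand, was present at 20 µg/mL in the cultures of 4 libraries and absent from those of the other 4. The labels name no control antibody, and the stellate cells were not sequenced here. They call the samples biological but do not say how the cultures were separated, so p-values measure the spread between these libraries.

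The libraries held 10009711 to 15733280 counts, and every antibody library was deeper than every library without it. Replicate 1 without antibody stood apart from the other 3 of its arm, its counts differing from theirs by a chi-square per degree of freedom of 8.68 to 10.5, where all other pairs within an arm gave 1.68 to 4.37. Epithelial identity was plain: 9 marker genes summed to between 7072 and 8245 CPM on the unscaled library total in every library, with Krt19 at 1140 to 1520. All CPM of marker genes in this paragraph are on that unscaled total. Of these 9 genes 1 was called: Epcam rose, from 19.0 to 22.1 CPM without antibody to 22.6 to 26.1 with it (log2 fold change 0.28, edgeR adjusted p = 0.022). Summed levels of 14 stellate and fibroblast markers ran from 28.57 to 56.91 CPM with antibody and from 26.99 to 50.09 without (two-sided exact permutation p = 0.286, n = 4 each). Col1a1 stood at 10.8 to 19.2 against 10.1 to 15.2 CPM, and Dcn and Lum had no count in any library. Of the 6 stellate markers tested 1 was called: Pdgfra, a PDGF receptor gene, fell from 3.80 to 5.76 CPM without antibody to 2.14 to 3.18 with it (log2 fold change -0.84, edgeR adjusted p = 0.00271). The rest of the tested ones pointed the other way and were not called. Their log2 fold changes were 0.36 for Col1a1, 0.47 for Col1a2, 0.66 for Col3a1, 0.66 for Col5a2 and 0.61 for Pdgfrb. The pan-leukocyte gene Ptprc had 1 to 9 counts per library, and Tyrobp, Cd3e and Emr1 had none. Cd14 carried most of the sum of the 11 leukocyte markers. That sum ran from 66.61 to 69.54 CPM with antibody and from 67.25 to 73.0 without (two-sided exact permutation p = 0.0571, n = 4 each). The part of stellate RNA in the results below was not tested. In such bulk RNA, fewer cells of a kind and less RNA per cell cannot be told apart.

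Several of these genes are themselves textbook NF-kB targets, so their promoters are shown before the values. RefSeq promoter windows (GRCm38.p6, 250 bases before to 50 after the transcription start) were at hand for 7 of the 10 genes and not for Nfkb1, Relb and Nfkbiz. The kappaB consensus, the 10-base motif that NF-kB dimers bind, was searched on both strands. It occurred in 8.46% of all 32851 windows, and in 7 of the 10 windows that these 7 genes have. Windows of Nfkb2 overlap in part and share a match, so these 7 windows do not all hold separate sites. The windows with a match belonged to 5 genes: Nfkb2, Rel, Nfkbia, Nfkbie and Tnfaip3. The stretch of 130 bases that ends at the base before the transcription start is printed for these 5, on the gene's own strand, with kappaB matches in capitals.
Tnfaip3 (chr10:19015411-19015540, minus strand): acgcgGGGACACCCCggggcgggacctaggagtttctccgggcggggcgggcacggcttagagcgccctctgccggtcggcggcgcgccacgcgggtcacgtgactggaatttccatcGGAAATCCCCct
Nfkbia (chr12:55492648-55492777, minus strand): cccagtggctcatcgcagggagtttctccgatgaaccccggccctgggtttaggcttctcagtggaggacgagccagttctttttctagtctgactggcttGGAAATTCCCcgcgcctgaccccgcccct
Nfkbie (chr17:45555570-45555699, plus strand): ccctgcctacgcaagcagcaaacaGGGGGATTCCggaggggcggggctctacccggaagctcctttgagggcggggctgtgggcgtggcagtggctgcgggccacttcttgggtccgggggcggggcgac
Rel (chr11:23770970-23771099, minus strand): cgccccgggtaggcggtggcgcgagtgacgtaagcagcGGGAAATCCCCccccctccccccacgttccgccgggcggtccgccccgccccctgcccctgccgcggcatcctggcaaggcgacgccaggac
Nfkb2 (chr19:46304607-46304736, plus strand): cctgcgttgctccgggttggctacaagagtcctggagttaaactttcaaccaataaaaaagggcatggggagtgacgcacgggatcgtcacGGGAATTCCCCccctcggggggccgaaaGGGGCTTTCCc

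Tnfaip3 held a match from -125 to -116, which reads as the motif on both strands, and another from -12 to -3, counted from the transcription start. The Nfkbia match lay at -29 to -20 and that of Nfkbie at -106 to -97. In Rel, overlapping matches covered -92 to -82. In Nfkb2, overlapping matches covered -39 to -29 and another lay at -11 to -2. RefSeq gives Nfkb2 further start sites, whose overlapping windows held 2 and 1 matches. A single site is counted in both, at 11 to 20 after one start and at -225 to -216 from the other. For Tnfaip3 RefSeq gives a second start site, whose window held 0. The windows of Rela and Birc3 held no match to these letters. A match is a description of sequence and not evidence of binding in these cells.

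Per transcript length, the subunit genes Rela, Nfkb2 and Nfkb1 were the most abundant of the 10 and Nfkbie the least. In the authors' RPKM values, Rela, the main transactivating subunit, stood at 34.7 ± 3.46 without antibody and 34.3 ± 0.679 with it (SD, n = 4 each, as for all RPKM values here). Nfkb2, the precursor of p52, followed at 21.4 ± 1.29 and 21.5 ± 1.11, and Nfkb1, the precursor of p50, at 18.6 ± 0.854 and 19.0 ± 0.38. Nfkbia, which encodes IkB-alpha, was next at 15.6 ± 1.10 and 15.9 ± 0.769. The span from Rela to Nfkbie was 20.7-fold without and 23.0-fold with antibody.

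Nfkbiz held rank 5 and Tnfaip3 rank 6 in both arms, but their distance to their neighbours differed. Without antibody, Nfkbiz (12.8 ± 1.22 RPKM) and Tnfaip3 (12.0 ± 0.422) had overlapping ranges, and so did Nfkbia and Nfkbiz. With antibody, Nfkbiz stood at 10.1 ± 0.931 and Tnfaip3 at 8.54 ± 0.539 RPKM, and neither range met a neighbour's. Below them came Relb (5.24 ± 0.366 without, 5.08 ± 0.463 with) and Rel (4.94 ± 0.591 and 5.15 ± 0.334), whose ranges overlapped in both arms. Birc3 followed at 2.96 ± 0.101 and 3.10 ± 0.175, and Nfkbie at 1.68 ± 0.165 and 1.49 ± 0.201 RPKM.

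**Figure D1:**
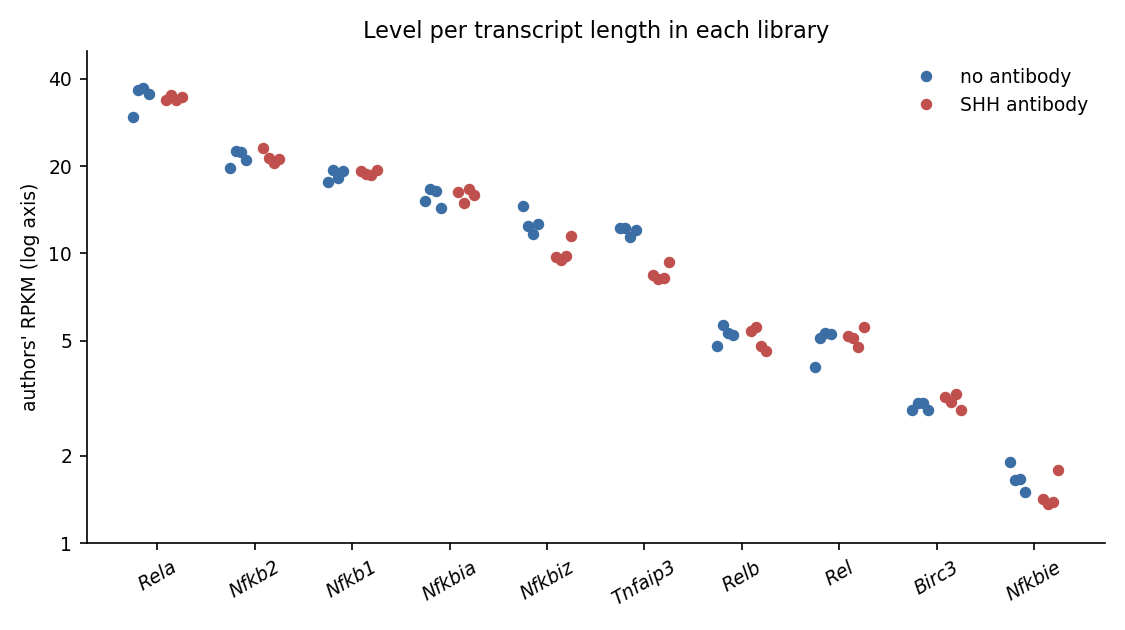
Level of each gene in the authors' RPKM (vertical log axis) in the 4 libraries without antibody (blue) and the 4 with it (red), ordered by the mean without antibody. Rela lies near 34 and Nfkbie near 1.5 RPKM, and the colours separate for Nfkbiz and Tnfaip3 alone.

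With the antibody, Tnfaip3 and Nfkbiz were lower, and the other 8 genes, among them all 5 subunits, did not pass the test. Thus 2 of 10 genes were called, both lower, where 8.4% of all tested genes were called in either direction, 3.87% as lower and 4.53% as higher. The same 2 were the only members whose arms did not overlap in CPM, which held for 14.3% of all genes. With counts this small, the share of members called is not by itself a result about the group. The median log2 fold change was -0.01 over the members and -0.0044 over all tested genes. All fold changes are antibody over no antibody from edgeR's quasi-likelihood test, and adjusted p-values are Benjamini-Hochberg over the 13626 genes.

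Tnfaip3 encodes A20, a ubiquitin-editing enzyme that shuts off signaling between the TNF and Toll-like receptors and the IkB kinase (ENSMUSG00000019850, chromosome 10, 19000910 to 19015657, minus strand, GRCm38). Its level was 60.40, 58.93, 59.36 and 67.65 CPM in antibody replicates 1 to 4, from 902 to 1008 counts. Without antibody it was 89.62, 88.84, 82.06 and 87.22 CPM, from 876 to 1274 counts. The lowest control library thus lay above the highest antibody library. The mean fell from 86.93 ± 3.40 to 61.59 ± 4.09 CPM, a 1.41-fold fall (log2 fold change -0.50 ± 0.05 SE, edgeR adjusted p = 2.89e-06). The 95% interval of the fold, antibody over none, reached from 0.655 to 0.766, and by p-value the gene ranked 36 of 13626. In the fits without a single library the log2 fold change ran from -0.55 to -0.48.

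Nfkbiz encodes IkB-zeta, an atypical nuclear IkB that binds p50 on DNA and helps to switch on a subset of secondary NF-kB targets (ENSMUSG00000035356, chromosome 16, 55811375 to 55838899, minus strand). It is therefore an inhibitor by family and in part a coactivator by function. Antibody replicates 1 to 4 stood at 48.18, 47.44, 49.03 and 57.85 CPM, and those without antibody at 74.03, 62.70, 58.55 and 63.26. The arms were separated by the narrow gap between 57.85 and 58.55 CPM. The mean fell from 64.63 ± 6.61 to 50.63 ± 4.86 CPM, a 1.28-fold fall (log2 fold change -0.36 ± 0.07 SE, edgeR adjusted p = 0.00252), with a fold between 0.705 and 0.866 at 95% confidence. The highest control value came from replicate 1, the library that stood apart. Without that replicate and replicate 4, Nfkbiz was still called, at -0.26 (adjusted p = 0.00654).

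Nfkbia, the classical rapid feedback inhibitor, did not follow them (ENSMUSG00000021025, chromosome 12, 55489411 to 55492647). Its 4 antibody libraries held 25.47, 23.43, 26.19 and 25.10 CPM and the others 24.16, 26.44, 25.85 and 22.66, with full overlap. The log2 fold change was 0.02 ± 0.07 SE (edgeR adjusted p = 0.906). Its fold lay between 0.916 and 1.13 at 95% confidence, which does not reach the fall seen in Tnfaip3. Birc3 encodes cIAP2, a ubiquitin ligase of TNF receptor complexes and another common NF-kB target (ENSMUSG00000032000, chromosome 9, 7848699 to 7873186). It stood at 15.82, 15.30, 16.32 and 14.43 CPM with antibody and at 14.65, 15.32, 15.27 and 14.38 without. Its interval of the fold was 0.926 to 1.17 (edgeR adjusted p = 0.745).

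Nfkbie, which encodes IkB-epsilon, was the least certain of the set (ENSMUSG00000023947, chromosome 17, 45555716 to 45563169). Antibody replicates 1 to 4 gave 53, 52, 51 and 65 counts and those without antibody 60, 40, 43 and 53, or 3.41, 3.30, 3.36 and 4.36 CPM against 4.68, 4.01, 4.03 and 3.63. Of the antibody libraries 3 lay below every control and replicate 4 lay above 3 of them. The log2 fold change was -0.18 ± 0.16 SE (edgeR adjusted p = 0.56). Its interval of the fold, 0.706 to 1.11, takes in the size of the fall of Tnfaip3 as well as no change, so these libraries leave a fall of that size undecided.

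**Figure D2:**
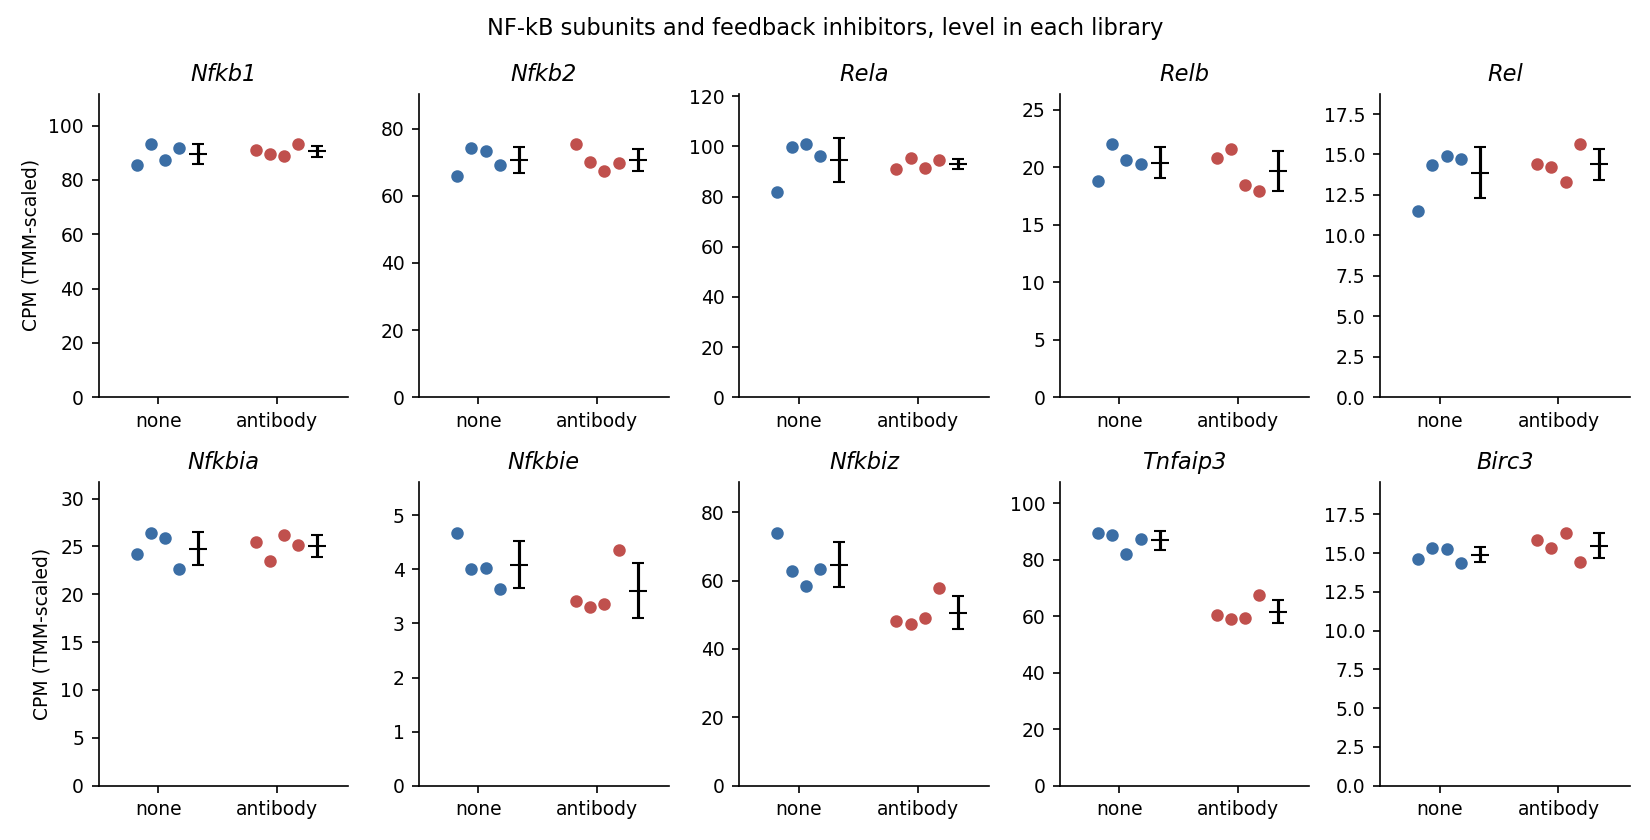
Level of each of the 10 genes in CPM (vertical axis from 0, own scale per panel) in the 4 libraries without antibody (blue) and the 4 with it (red). Points are replicates 1 to 4 from left to right, with mean and SD in black, and only Tnfaip3 and Nfkbiz have arms that do not overlap.

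The subunit transcripts were nearly level between the arms. Rela (ENSMUSG00000024927, chromosome 19, 5637483 to 5648130) read 90.95, 95.26, 91.28 and 94.36 CPM with antibody and 81.67, 99.85, 100.89 and 95.99 without. The control libraries enclosed the antibody libraries on both sides, and the spread between libraries was 9.38% of the mean without antibody against 2.33% with it. Nfkb1 (ENSMUSG00000028163, chromosome 3, 135584655 to 135691547) ranged from 88.59 to 93.15 CPM with antibody and from 85.41 to 93.14 without. Nfkb2 (ENSMUSG00000025225, chromosome 19, 46304737 to 46312090) ranged from 67.46 to 75.39 and from 65.77 to 74.11 CPM. An annotated gene on the other strand, Psd, overlaps Nfkb2, but with 2 to 7 counts per library.

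Relb, the subunit of the non-canonical branch (ENSMUSG00000002983, chromosome 7, 19606217 to 19629438), ranged from 17.99 to 21.59 CPM with antibody and from 18.78 to 22.03 without. Rel, which encodes c-Rel, a subunit best known from lymphocytes (ENSMUSG00000020275, chromosome 11, 23741514 to 23770970), ranged from 13.29 to 15.64 and from 11.53 to 14.89 CPM. The low end of Rel came from control replicate 1, as did the lowest control values of the other 4 subunits. Log2 fold changes of the 5 subunits lay between -0.05 (Relb, edgeR adjusted p = 0.81) and 0.06 (Rel, edgeR adjusted p = 0.796). Their 95% intervals of the fold were 0.945 to 1.09 for Nfkb1, 0.927 to 1.08 for Nfkb2, 0.905 to 1.07 for Rela, 0.862 to 1.09 for Relb and 0.907 to 1.19 for Rel. The sign of the small differences of Nfkb1, Nfkb2, Rela, Rel and Nfkbia turned in some alternative fits, so none has a stable direction.

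**Figure D3:**
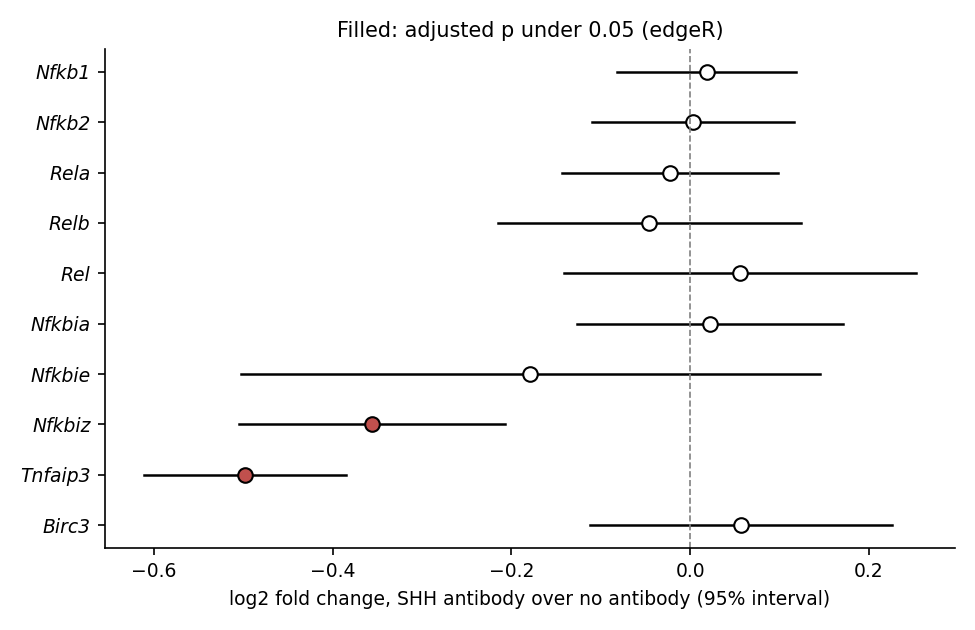
Log2 fold change of each gene, antibody over no antibody (horizontal axis), with its 95% interval from edgeR. The intervals of Nfkbiz and Tnfaip3 lie below 0, while the other 8 include 0 and that of Nfkbie is the widest.

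Whether the called genes moved differently from the others was tested on count ratios within a library, which need no scaling. These 17 ratios were chosen after the fits had been seen, with numerators picked for their fall, so they measure the differences and are not independent support. For Tnfaip3 over Nfkbia the ratio was 3.52 ± 0.311 without antibody and 2.46 ± 0.186 with it (SD, n = 4 each). The ranges, 3.17 to 3.85 and 2.27 to 2.70, did not overlap (two-sided exact permutation p = 0.0286, the smallest that 70 assignments allow, adjusted p = 0.0486 over the 17 ratios). That adjusted value depends on how many of these related ratios reach the smallest p, so it adds no evidence. The same held for Tnfaip3 over each of the 8 members not named Nfkbiz, with log2 differences from -0.56 (over Rel) to -0.32 (over Nfkbie).

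For Nfkbiz the separation was less complete. Its ranges did not overlap over Nfkb1 (log2 difference -0.37) and Rel (-0.41), each with exact permutation p = 0.0286. Over Nfkbia the ratio was 2.62 ± 0.372 without and 2.02 ± 0.200 with antibody, with ranges that overlapped (exact permutation p = 0.0571, adjusted p = 0.0648, n = 4 each). Over Relb the exact permutation p was 0.143 (n = 4 each). Set against each other, Nfkbiz over Tnfaip3 was 0.743 ± 0.0562 without and 0.821 ± 0.0258 with antibody, and the difference in how far they fell did not pass (exact permutation p = 0.114, adjusted p = 0.121, n = 4 each).

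**Figure D4:**
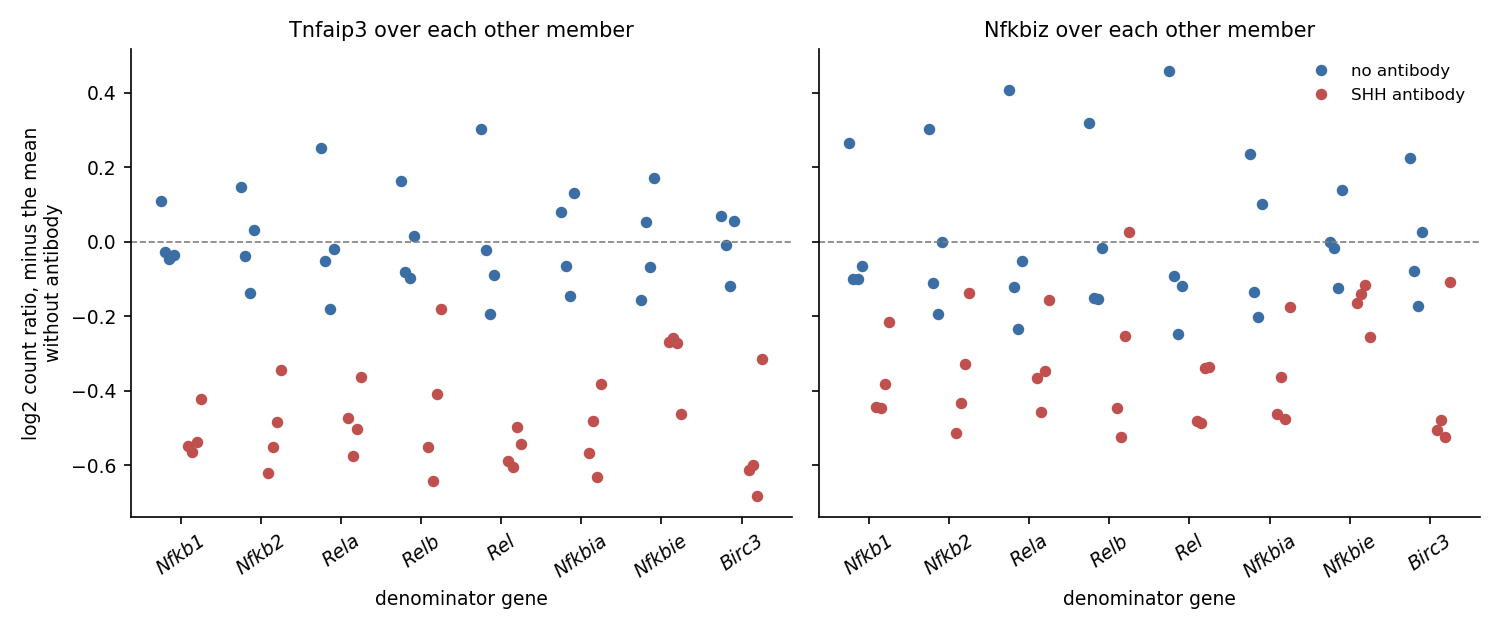
Log2 ratio of the counts of Tnfaip3 (left) and Nfkbiz (right) to each of the 8 uncalled genes in the same library, less the mean without antibody (vertical axis). Red antibody points lie below all blue control points in every column on the left, and in the Nfkb1 and Rel columns on the right.

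Among 11009 genes of at least 5 CPM, those with the profile most like a called member were sought by the mean absolute difference of centred log2 CPM over the 8 libraries. For Tnfaip3 they were Cited2, a transcriptional coregulator (0.039), Ankrd1, a nuclear ankyrin-repeat protein (0.046), and Ptges, which makes prostaglandin E (0.05). Cited2 fell from 144.8 ± 2.58 to 98.45 ± 3.72 CPM (log2 fold change -0.56, edgeR adjusted p = 1.03e-07). For Nfkbiz they were Timm10, a chaperone of mitochondrial import (0.039), Areg, the EGF receptor ligand amphiregulin (0.041), and Slc9a2, a sodium-proton exchanger (0.048). Areg fell from 118.3 ± 8.89 to 93.22 ± 8.70 CPM (log2 fold change -0.34, edgeR adjusted p = 0.000983). All 6 were called as lower, which the choice by likeness to a gene that fell largely fixes.

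Few genes of the signaling machinery above NF-kB passed the test. Of 25 genes for other IkB proteins, the IkB kinases and the adaptors upstream, 24 were tested, 1 was higher and 0 lower, where 4.53% and 3.87% of all tested genes were called so, and the median log2 fold change was 0.03. A count of 1 is near that background. The higher gene was Ikbkg, the regulatory NEMO subunit of the kinase complex, from 133.2 ± 6.75 to 155.3 ± 3.70 CPM (0.22 ± 0.05 SE, edgeR adjusted p = 0.00483). Ikbkg overlaps G6pdx on the other strand, which had 1286 to 1824 counts per library, and the strand setting of the counting is not given, so its value is uncertain. Tab1, an adaptor of the kinase TAK1, had -0.17 (edgeR adjusted p = 0.117), and was called as lower without control replicate 1 (-0.21, adjusted p = 0.0332) and without control replicates 1 and 4 (-0.28, adjusted p = 0.00185). The kinase genes Chuk (124.1 ± 8.76 to 120.0 ± 6.28 CPM) and Ikbkb (120.1 ± 8.76 to 112.6 ± 1.96 CPM) did not pass, nor did Map3k14, the kinase of the non-canonical branch (21.01 ± 2.27 to 21.20 ± 2.31 CPM). These 3 were picked by role and not by rule.

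No gene on a list of other brakes and ubiquitin regulators passed the test with all 8 libraries and the filter on low counts. The 21 tested genes included those for A20-binding proteins, deubiquitinases, linear ubiquitin ligases and TRAF proteins. Of the 21, 0 were called by edgeR in either direction, as by DESeq2 and limma voom. At unadjusted p under 0.05 there were 4, and the median log2 fold change was 0.01. Beside the 8.4% called over all genes, a count of 0 of 21 is no result about the list, and no test compared these genes with Tnfaip3. The smallest p was that of Zc3h12a, an RNase that degrades cytokine mRNAs, at 14.80 ± 1.92 without and 11.92 ± 0.777 CPM with antibody (-0.31 ± 0.10 SE, edgeR adjusted p = 0.0632). It was called without control replicate 4 (-0.40, adjusted p = 0.0141), without control replicates 1 and 4 (-0.34, adjusted p = 0.03) and with no filter on low counts (-0.30, adjusted p = 0.0399). Rnf11, a partner of A20, had -0.15 (edgeR adjusted p = 0.121) and was called without control replicate 3 (-0.20, adjusted p = 0.0283), but stood at -0.024 (adjusted p = 0.79) without control replicates 1 and 4. With control replicate 1 alone left out, 1 gene of this list was called. It was neither Zc3h12a (edgeR adjusted p = 0.159) nor Rnf11 (edgeR adjusted p = 0.166). Without control replicates 1 and 4 together, 4 genes of this list, Rnf11 not among them, and 3 of the machinery list were called. The A20-binding gene Tnip1 stood at 77.60 ± 4.62 and 80.15 ± 1.90 CPM and was picked by role.

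Transcripts known to be induced by NF-kB were lower more often than higher. Of 33 such genes 22 were tested, 13 fell and 2 rose, where 3.87% of all tested genes were called as lower and 4.53% as higher, with a median log2 fold change of -0.28 against -0.0044 over all genes. The list was drawn up with results of these libraries known and so gives no independent evidence of direction. Many of its genes are also known to answer to ERK and AP-1, and the part of either input here was not tested. Ier3, an early survival gene, fell from 396.0 ± 32.3 to 232.5 ± 17.4 CPM (edgeR adjusted p = 4.64e-08). Ptgs2, which encodes the cyclooxygenase COX-2, fell from 798.6 ± 125.0 to 413.1 ± 55.4 CPM (-0.95 ± 0.09 SE, edgeR adjusted p = 3.82e-07). The chemokine gene Cxcl5 had a log2 fold change of -0.90, Lif of -0.55 and Csf1, the macrophage growth factor, of -0.35, and all 3 fell. Il1a fell by 1.89 on the log2 scale from a low level, 2.35 ± 0.493 to 0.637 ± 0.092 CPM. It had 20 to 44 counts per library without antibody and 8 to 11 with it. An overlapping gene on the other strand, Gm14023, had 4 to 12 counts per library. With the strand setting not given, the value of Il1a is uncertain too. On log2(RPKM + 1) its log2 fold change was -0.72.

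The targets were not uniform. Vcam1, an adhesion receptor for leukocytes, rose by 0.31 on the log2 scale (edgeR adjusted p = 0.0151), and the transcription factor gene Irf1 by 0.25 (edgeR adjusted p = 0.0153). Classical targets that did not pass included Sod2, the mitochondrial superoxide dismutase (52.07 ± 3.23 to 51.38 ± 1.83 CPM), Icam1 (30.21 ± 1.46 to 29.40 ± 1.45 CPM) and Tnf itself (2.35 ± 0.583 to 2.27 ± 0.191 CPM). These 5 genes were named after their values had been seen.

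**Figure D5:**
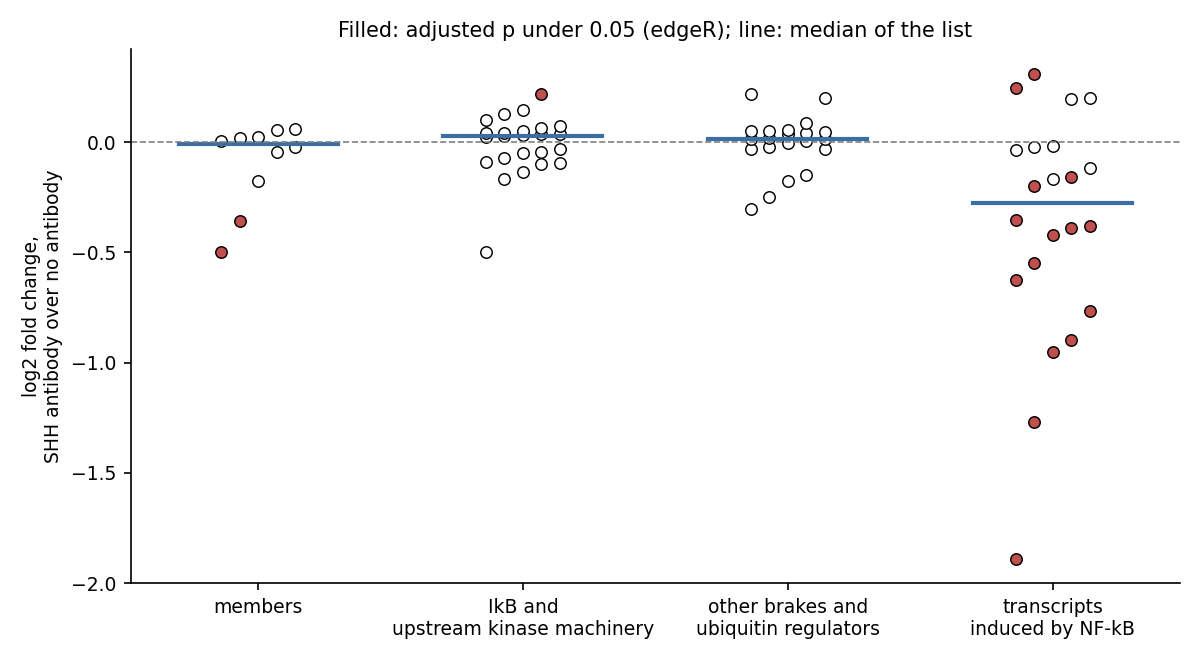
Log2 fold change, antibody over no antibody (vertical axis), of each tested gene. Groups are the 10 members, 24 genes of the upstream machinery, 21 other brakes and ubiquitin regulators, and 22 NF-kB-induced transcripts. Filled points passed at adjusted p under 0.05 and lines mark medians, which lie near 0 for the first 3 groups and at -0.28 for the last.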

How the data were processed

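Polyadenylated RNA of sorted cancer cells was sequenced from strand-specific libraries, per the labels' protocols. Base calls came from CASAVA 1.8.2 and alignments from TopHat2 2.0.9 on GRCm38, per the submitters' processing notes. Not given in the sources used here were the counter, the annotation and whether it used strand. The authors deposited raw counts per Ensembl gene, which were used for all tests, and RPKM values, which the authors scaled by gene length and library total, used for levels between genes.

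The test was edgeR 4.0.16 under R 4.3.3 (TMM, filterByExpr, quasi-likelihood F test, arm as the only term, Benjamini-Hochberg over all tested genes, threshold 0.05). Standard errors come from the F statistic. CPM values are TMM-scaled, except those of the cell type markers and their sums, which use the unscaled library total. CPM values with ± are mean and SD over 4 libraries. A count of 3 equals 0.191 to 0.3 CPM, which covers counting error only. Within-library ratios were tested by exact permutation (scipy 1.17.1). Alternatives used other scalings and filters, the replicate number as a block, DESeq2 1.42.0, limma 3.58.1 (voom, and log2(RPKM + 1) or log2(RPKM + 0.1)) and omission of libraries. Same-numbered libraries did not deviate together (correlations from -0.029 to 0.007 over genes), so the numbers were not taken as pairs.

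The genes and lists were chosen with earlier results of these data known. All 10 members are named. From each list the called genes with the smallest p are named, up to 6, or the 2 smallest where fewer were called. For the 2 members with the smallest adjusted p, the 3 most similar genes are named. Part of the labelled genotype and 1 marker gene are not reported here.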

Additional observations from a re-analysis of the deposited data

Results flagged for a closer look

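In 4 instances a single library lay far from the other 3 of its arm, by Dixon's ratio of gap to range at the 95% level. Chance flags about 1 in 20 such groups, and 40 groups were examined. Antibody replicate 4 was the high library in 3 of them: Tnfaip3 at 67.65 CPM (others 58.93 to 60.40), Nfkbiz at 57.85 (others 47.44 to 49.03) and Nfkbie at 4.36 (others 3.30 to 3.41). In each case it lay toward the control level, and without it the log2 fold changes were -0.55 for Tnfaip3, -0.43 for Nfkbiz and -0.28 for Nfkbie (edgeR adjusted p = 3.76e-06, 0.000704 and 0.402). The same library was the highest of its arm for Ptgs2, at 494.22 CPM. For Rel, control replicate 1 was low, at 11.53 CPM against 14.32 to 14.89, and without it the log2 fold change was -0.027.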

How the results depend on the processing

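Tnfaip3 and Nfkbiz were called as lower in all 18 alternative fits, with log2 fold changes from -0.55 to -0.45 and from -0.43 to -0.26 and adjusted p up to 0.00142 and 0.0401, and the number of members called was 2 in each. With the replicate block Tnfaip3 stood at -0.50 (adjusted p = 4.66e-06) and Nfkbiz at -0.35 (adjusted p = 0.0019), members called were 2, and the block moved the count over all genes from 1144 to 1005. Same-numbered libraries share only a number. Genes called over the table were 675 on log2(RPKM + 1), 670 on log2(RPKM + 0.1), 679 to 1485 without 1 library, and 2263 without control replicates 1 and 4, an omission chosen after seeing the data. That omission also gave 3 called genes in the machinery list and 4 in the list of other brakes and ubiquitin regulators. The latter list had 1 called gene without a filter and 0 to 1 without 1 library, and the machinery list 1 to 2. The list of NF-kB-induced transcripts had 10 to 14 called genes without 1 library and 10 to 15 over all 18 alternatives. Signs that turned belong to uncalled members near 0. Nfkb2 was -0.0021 with upper quartile scaling, -0.033 without antibody replicate 1, -0.03 and -0.0071 without control replicate 1 or 4, and -0.063 without both. Nfkb1 was -0.0041 and Rel -0.027 without control replicate 1, and Rel -0.025 without replicates 1 and 4. Rela was 0.003 and 0.0082 without control replicate 2 or 3. Nfkbia was -0.00054 without antibody replicate 3, -0.023 without control replicate 4 and -0.064 without control replicates 1 and 4. Over single omissions the ranges were -0.0041 to 0.038 for Nfkb1, -0.033 to 0.026 for Nfkb2, -0.089 to 0.0082 for Rela, -0.027 to 0.092 for Rel and -0.023 to 0.053 for Nfkbia. The causes were not tested. Nfkbie was left out by the stricter filter, and its 40 to 65 counts per library limit what can be seen.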
